A study of Caenorhabditis elegans with 43 samples.

Results

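The insulin-like peptide genes of Caenorhabditis elegans were followed in whole-worm RNA from 4 strains over 18 to 38 h of development. Members were the genes in the table of counts whose WormBase symbol is ins followed by a number, or daf-28, and there were 39 of them among 20182 genes. The strains were let-7(n2853), lin-41(xe11), their combination lin-41(xe11);let-7(n2853), here called the double mutant, and the wild type N2. let-7 is a microRNA that acts late in larval life, and lin-41 is a target of it whose TRIM-NHL protein binds RNA. n2853 is a point mutation of the microRNA whose effect depends on temperature. In xe11 the let-7 sites of the lin-41 3′ UTR are changed, and the double mutant carries both alleles. All worms, N2 included, were grown at 25 °C on bacteria after hatching without food, and were collected at steps of 2 h with 1 library per strain and hour. let-7(n2853) had 10 libraries, from 18 to 36 h, and each of the other strains had 11, from 18 to 38 h. Strains were compared in an early window of 18 to 26 h and a late window of 28 to 36 h, with n = 5 libraries per strain in each. The labels do not say whether libraries came from separate cultures, so p-values measure only the spread between these samples.

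Insulin-like peptides are small secreted hormones, made largely in neurons and in part in the intestine and epidermis, that bind the receptor DAF-2. Agonists activate DAF-2 and, through AGE-1, PDK-1 and AKT kinases, keep the FOXO transcription factor DAF-16 out of the nucleus, whereas antagonists have the opposite effect. The balance governs entry into and exit from the dauer larva, growth, germline proliferation and lifespan.

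Levels are given as CPM, counts per M (mega) of library size after TMM scaling. Changes are log2 fold changes from edgeR's quasi-likelihood test, ± a standard error worked out from the fold change and the F statistic. For genes of few counts this error can be too small for the p-value given. A gene was called at a Benjamini-Hochberg adjusted p under 0.05 over all genes tested. The let-7(n2853) libraries held 22.9 to 32.9 M counts, those of lin-41(xe11) 11.2 to 16.45 M, double-mutant libraries 12.7 to 25.0 M and N2 libraries 12.59 to 16.12 M. Any batch that follows strain cannot be told apart from genotype, and the greater depth of let-7(n2853) is such a feature. When each library was placed on the N2 course by all tested genes, the mean of this age minus the collection hour was -0.82 h early and -0.76 h late in let-7(n2853). It was -1.06 h early and 0.14 h late in lin-41(xe11), -0.08 h and -0.22 h in the double mutant, and -0.14 h and 0.08 h in N2. The libraries at 24 h of let-7(n2853) and lin-41(xe11) stood furthest from their labels, at -3.1 h and -4.1 h.

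The genes were clustered on the chromosomes. In the Ensembl annotation of WBcel235, whose gene identifiers the table shares, 15 members lay on chromosome II and 10 on chromosome I, all annotated as protein-coding, with exonic lengths of 284 to 955 bases. With a gap of at most 15 kb between neighbours, 25 members fell into 7 groups and 14 stood alone. The largest group held 7 genes, ins-28, ins-29, ins-25, ins-27, ins-24, ins-30 and ins-26, within 25.4 kb of chromosome I (positions 14012369 to 14037777). The next held 6, ins-2, ins-3, ins-4, ins-5, ins-6 and ins-20, within 22.8 kb of chromosome II (5988524 to 6011321). The sources used here do not say how reads shared by similar genes were counted or whether counting used strand. Exons of 5 members overlap another gene. For ins-37 (chromosome II, 13835101 to 13836107, minus strand), 192 of 955 exonic bases are also in exons of an snRNA gene or a non-coding RNA gene. For ins-10 (chromosome V, 14033949 to 14034396), 74 of its exonic bases are in an exon of vps-39 on the other strand. Reads from such stretches cannot be told apart by gene without strand.

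Most of the family was transcribed at a measurable level in these worms. A member was taken as detected where at least 5 of the 43 libraries held at least 3 counts, and 29 of the 39 were. By the same rule within a strain, let-7(n2853) had 27 detected, lin-41(xe11) had 25, the double mutant had 25 and N2 had 27, over libraries of unequal depth. The 10 not detected were ins-21, ins-15, ins-20, ins-2, ins-34, ins-32, ins-36, ins-39, ins-13 and ins-8. Their totals over all 43 libraries ran from 3 counts for ins-8 to 51 for ins-21. In the shallowest library 3 counts came to 0.283 CPM. Every one of the 7 genes of the chromosome I group was detected, against 4 of the 6 on chromosome II, where ins-2 and ins-20 were not.

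A few genes supplied most of the family's RNA. Summed over all members, levels ran from 54.04 to 103 CPM in let-7(n2853), 45.9 to 103.8 CPM in lin-41(xe11), 52.4 to 112 CPM in the double mutant and 45.5 to 118 CPM in N2. Divided by exonic length, the mean N2 level was 63.3 CPM per kb for ins-27, 18.9 for ins-33, 15.5 for ins-35, 11.9 for ins-30 and 9.02 for ins-17. The remaining detected members lay at or under 5.73 CPM per kb, the value of ins-26. daf-28, an agonist made in sensory neurons that keeps larvae out of dauer, stood at 2.64 CPM per kb.

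Per kb, ins-27 was the highest member in each of the 43 libraries. Its levels in let-7(n2853), from 18 to 36 h, were 25.2, 23.3, 20.5, 26.1, 16.3, 25.5, 14.7, 22.7, 23.6 and 18.2 CPM. In lin-41(xe11), from 18 to 38 h, they were 24.2, 20.5, 18.5, 24.3, 23.4, 18.9, 11.3, 23.1, 18.4, 11.9 and 9.80 CPM. The double mutant had 25.2, 22.9, 19.5, 20.0, 18.3, 20.5, 16.8, 21.2, 19.6, 13.5 and 9.38 CPM. N2 had 28.8, 26.3, 23.2, 19.6, 20.4, 18.0, 14.9, 19.8, 20.3, 15.1 and 9.54 CPM over the same hours. The 4 strains overlapped, and the lowest levels of lin-41(xe11), the double mutant and N2 were all at 38 h. Late in let-7(n2853) the ins-27 difference from N2 was 0.22 ± 0.10, not called (adjusted p = 0.135). It was called by edgeR without TMM factors (0.30, adjusted p = 0.0250) and by limma (0.28, adjusted p = 0.0266). Both also called it late against the double mutant (adjusted p = 0.0441 and 0.0465), where the main fit did not (0.17 ± 0.10, adjusted p = 0.270).

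ins-30, its neighbour on chromosome I, had 14.3, 11.1, 13.3, 12.57, 5.08, 7.40, 4.69, 4.49, 4.76 and 3.71 CPM in let-7(n2853). It had 13.5, 11.7, 10.3, 7.93, 6.75, 5.97, 2.97, 5.66, 3.26, 4.23 and 2.89 CPM in lin-41(xe11) and 12.3, 11.3, 9.49, 7.07, 8.22, 6.13, 5.95, 3.97, 4.94, 4.20 and 3.39 CPM in the double mutant. In N2, ins-30 had 13.6, 13.4, 11.4, 10.3, 8.03, 7.87, 6.67, 6.10, 4.65, 3.18 and 2.75 CPM. All 4 courses were high at 18 h and low at the end, and they overlapped.

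ins-17, reported as an antagonist of DAF-2, varied least among the 5 most abundant members. It measured 6.34, 4.95, 5.18, 5.06, 4.76, 4.29, 4.02, 4.34, 2.82 and 2.96 CPM in let-7(n2853). The lin-41(xe11) libraries held 5.98, 6.04, 5.09, 5.98, 4.96, 5.74, 3.76, 4.05, 3.34, 4.31 and 3.84 CPM, and those of the double mutant 5.47, 4.63, 4.99, 5.32, 5.06, 5.34, 4.13, 3.89, 4.37, 2.77 and 2.67 CPM. N2 libraries had 5.91, 5.35, 6.50, 5.37, 5.60, 4.29, 5.25, 5.22, 4.37, 3.82 and 3.60 CPM of ins-17. The strains overlapped in both windows.

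The other detected members spanned a wide range over the 43 libraries. Among genes in the groups of neighbours, ins-24 lay between 1.06 and 3.31 CPM, ins-3 between 0.751 and 3.41, ins-28 between 1.11 and 2.37 and ins-6 between 0.417 and 2.14. ins-22, whose product is a common marker of dense-core vesicles, lay between 0.334 and 2.05 CPM. ins-9 lay between 0.876 and 3.06 CPM, ins-10 between 0.295 and 2.10, and ins-18, an antagonist of DAF-2, between 0.395 and 2.17. The sparse genes ins-12, ins-23 and ins-25 had no count in some libraries and reached 0.853, 0.766 and 0.673 CPM. ins-11, which acts in the intestinal response to pathogens, reached 0.344 CPM, ins-16 reached 0.331 CPM and ins-19 reached 0.283 CPM. These last 3 fell under the mean of 0.2 CPM needed for testing, which left 26 members.

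**Figure D1:**
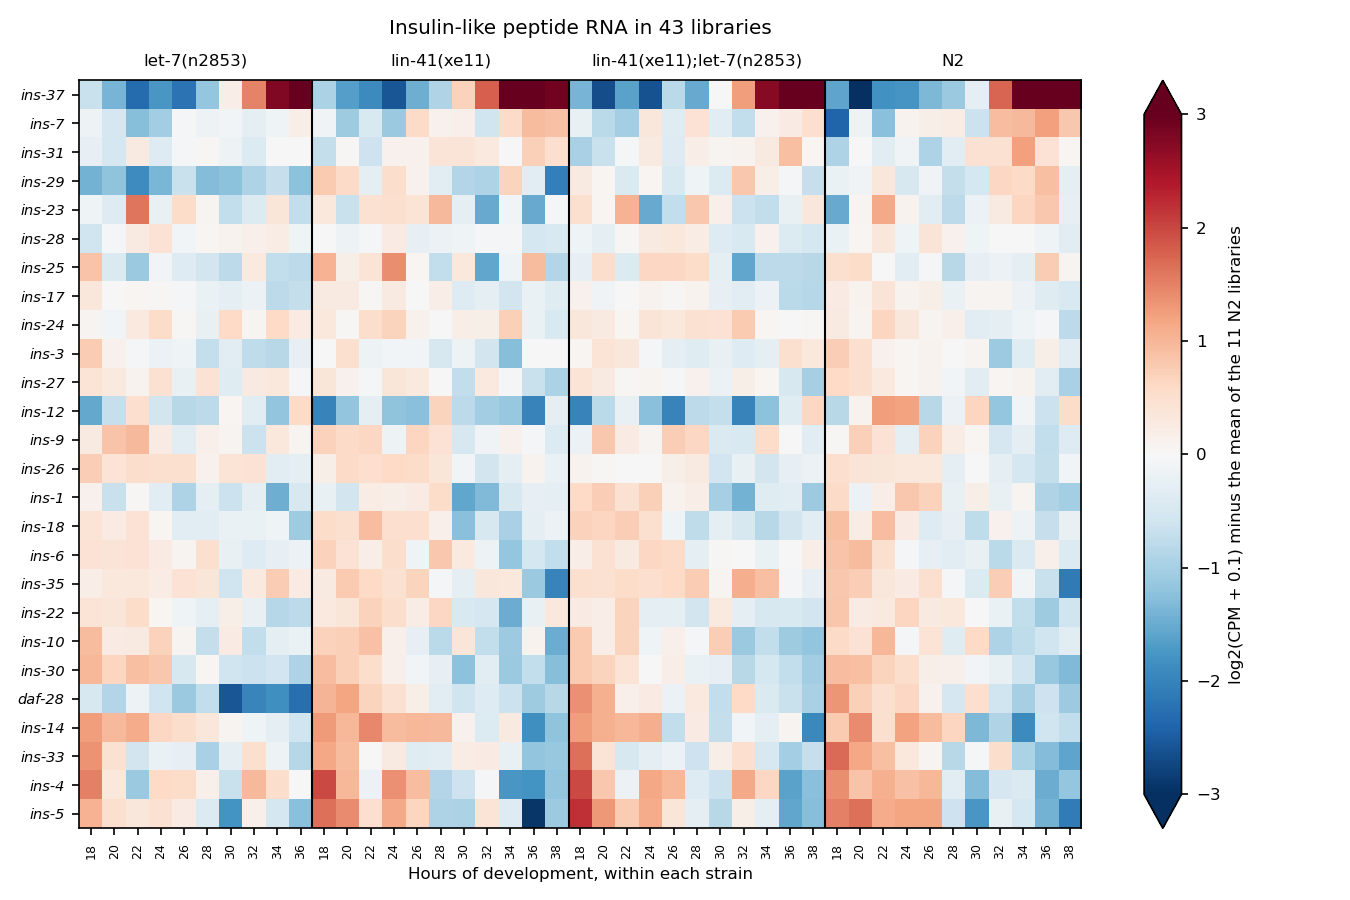
Levels of the 26 tested insulin-like peptide genes in 43 libraries, as log2(CPM + 0.1) minus the mean of the 11 N2 libraries, with hours of development from left to right within each strain and genes ordered by their N2 trend. The ins-37 row is blue up to 28 h and red from 32 h in every strain, while daf-28 and ins-29 are blue across let-7(n2853).

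Along the N2 course most members fell. The linear trend per 2 h over 11 libraries was called for 19 of the 26 members, 3 rising and 16 falling. Over all 15358 genes tested in N2, 58.9% were called, 33.4% rising and 25.5% falling. The median member trend was -0.10 per 2 h, and that of all genes 0.01. In bulk RNA, fewer cells of a type relative to the whole worm and less RNA per cell cannot be told apart. Markers of neurons moved the same way, with 9 of 10 neuron genes and 6 of 8 chemosensory genes falling in N2 and none rising. So did those of the epidermis, with 6 of 7 falling and none rising, while 7 of 7 germline genes rose. Of 7 intestinal genes 1 rose and none fell, and of 5 muscle genes 1 rose and 2 fell. The part of these lists in the result was not tested.

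**Figure D2:**
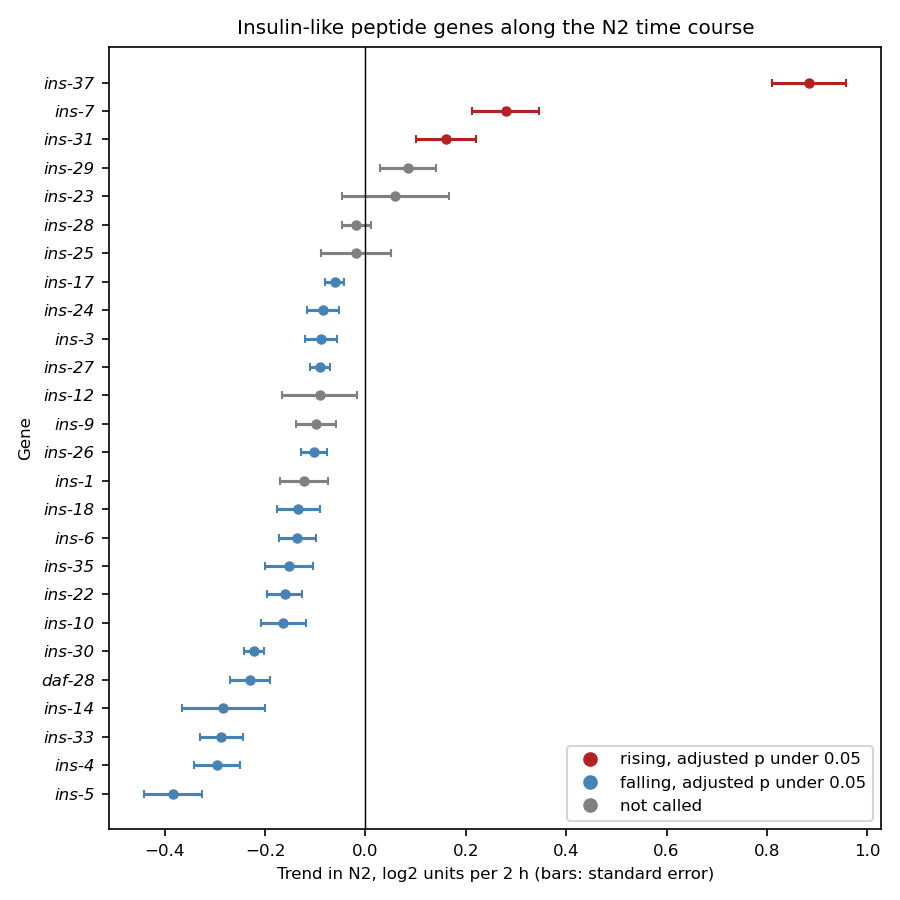
Linear trend of each tested member in N2, in log2 units per 2 h over 18 to 38 h, with the standard error as the bar (n = 11 libraries). The 3 rising genes are at the top, led by ins-37, and ins-5, ins-4, ins-33 and ins-14 are the 4 largest falls.

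The largest falls were of ins-5 and ins-4, neighbours on chromosome II. ins-4 encodes an agonist. ins-5 in N2 was 3.74, 4.15, 2.82, 2.96, 2.93, 0.767, 0.300, 1.04, 0.832, 0.398 and 0.212 CPM from 18 to 38 h. All 5 values up to 26 h were above all 6 later ones, and the trend was -0.38 ± 0.06 per 2 h (adjusted p = 0.000295). ins-4 in N2 was 2.99, 2.01, 2.36, 2.07, 2.24, 0.831, 0.375, 0.723, 0.763, 0.318 and 0.424 CPM, again with no overlap between the hours up to 26 h and those after, and its trend was -0.30 ± 0.05 (adjusted p = 0.000360). In the same group ins-6, an agonist that promotes dauer exit, fell by 0.14 per 2 h (adjusted p = 0.00974), and ins-3 by 0.09 (adjusted p = 0.0367). So each of the 4 detected members of that group fell.

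ins-33, reported as a target of the heterochronic factor LIN-14 in the epidermis, had 25.5, 17.7, 14.7, 9.64, 8.22, 4.35, 7.65, 11.3, 3.95, 3.105 and 2.54 CPM in N2. It was high at 18 h, low at 28 h, high again at 32 h and lowest at 38 h, with a trend of -0.29 ± 0.04 per 2 h (adjusted p = 0.000285). ins-14 had 0.996, 1.61, 0.787, 1.38, 1.12, 0.895, 0.150, 0.241, 0.0694, 0.318 and 0.283 CPM in N2, where every library up to 28 h was above every later one, and its trend was -0.28 ± 0.08 (adjusted p = 0.0146). ins-30 fell by 0.22 per 2 h (adjusted p = 9.72e-06). daf-28 fell by 0.23 per 2 h (adjusted p = 0.000756).

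The other 8 falls ranged from -0.06 per 2 h for ins-17 to -0.16 for ins-10, and included ins-27, the most abundant member (-0.09 ± 0.02, adjusted p = 0.00315). Of the 7 genes in the chromosome I group, 4 fell, ins-27, ins-24, ins-30 and ins-26, and ins-28, ins-29 and ins-25 were not called. The calls of ins-24, ins-3, ins-18, ins-35 and ins-17 were each lost under at least 1 of the alternatives run. The 7 members not called were those 3 with ins-9, ins-1, ins-12 and ins-23. For ins-9 the trend was -0.10 ± 0.04 (adjusted p = 0.0552), and for the antagonist gene ins-1 it was -0.12 ± 0.05 (adjusted p = 0.0784). For ins-28 the 95% interval of the trend ran from -0.09 to 0.05 per 2 h.

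Larval molts recur about every 8 h at this temperature, and many worm genes cycle with them. No member was called for an 8 h rhythm in N2 by edgeR, where 3.11% of all genes tested were called. At an unadjusted p under 0.05 there was 1, ins-12 (adjusted p = 0.135). No other tool was run for the rhythm.

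Against this decline, ins-37 rose steeply. In N2 it had 0.249, 0, 0.197, 0.207, 0.311, 0.384, 0.750, 3.37, 9.85, 8.76 and 9.54 CPM, and the 3 libraries from 34 h stood above all earlier ones. The trend was 0.88 ± 0.07 per 2 h (adjusted p = 6.98e-06). let-7(n2853) had 0.555, 0.295, 0.109, 0.212, 0.126, 0.368, 1.10, 2.80, 7.08 and 9.21 CPM from 18 to 36 h. lin-41(xe11) had 0.441, 0.232, 0.175, 0.0748, 0.276, 0.459, 1.58, 3.49, 8.60, 9.80 and 7.62 CPM and the double mutant 0.295, 0.0652, 0.243, 0.0700, 0.492, 0.264, 0.943, 2.40, 6.77, 9.18 and 9.97 CPM. In the 4 strains ins-37 was at most 0.555 CPM up to 28 h and at least 6.77 CPM from 34 h. No strain contrast was called for ins-37. Late in let-7(n2853) the difference from N2 was -0.15 ± 0.20 (95% interval -0.56 to 0.26), with 0.13 ± 0.21 for lin-41(xe11) and -0.25 ± 0.21 for the double mutant. Reads of the overlapping snRNA and non-coding RNA genes cannot be told apart from its own in these counts.

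ins-7, an agonist whose intestinal transcription DAF-16 is reported to lower, rose in N2 with a trend of 0.28 ± 0.07 per 2 h (adjusted p = 0.00503). Its N2 levels were 0.0623, 0.669, 0.262, 0.827, 0.871, 0.895, 0.450, 1.53, 1.60, 1.91 and 1.41 CPM, above 1 CPM in each library from 32 h and in none before. In let-7(n2853) they were 0.674, 0.501, 0.255, 0.319, 0.725, 0.670, 0.711, 0.598, 0.685 and 0.893 CPM. In lin-41(xe11) they were 0.693, 0.310, 0.526, 0.299, 1.17, 0.841, 0.857, 0.471, 1.17, 1.57 and 1.48 CPM, and in the double mutant 0.640, 0.391, 0.324, 0.981, 0.562, 1.06, 0.580, 0.413, 0.846, 0.925 and 1.11 CPM. No let-7(n2853) library passed 1 CPM. The late differences from N2, -0.81 ± 0.32 in let-7(n2853) (adjusted p = 0.0748) and -0.69 ± 0.35 in the double mutant (adjusted p = 0.458), were not called. The third rise, of ins-31, was 0.16 ± 0.06 per 2 h (adjusted p = 0.0429) and was lost under 10 of 16 alternatives.

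**Figure D3:**
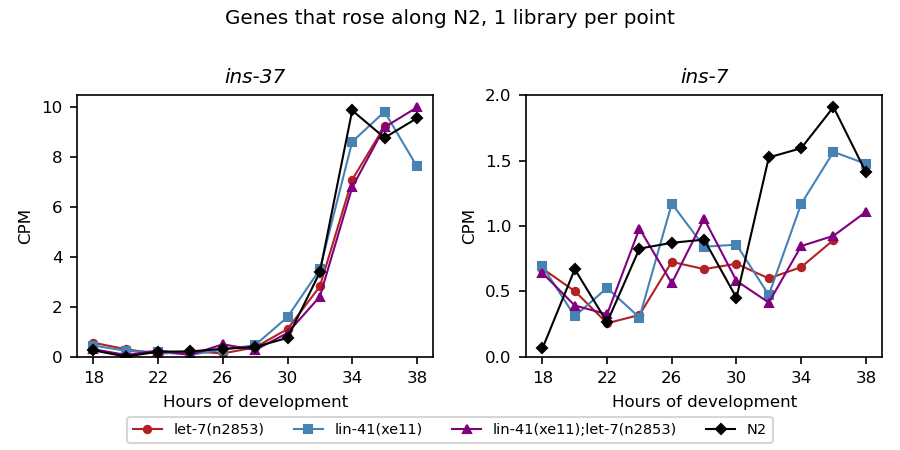
CPM of ins-37 and ins-7 by hour of development in the 4 strains, 1 library per point. ins-37 climbs after 30 h to 9.21 CPM in let-7(n2853), 9.80 CPM in lin-41(xe11), 9.97 CPM in the double mutant and 9.85 in N2.

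let-7(n2853) differed from N2 in a small set of members, and daf-28 and ins-29 were lower in both windows. Late, 6 of the 26 tested members were called, ins-4 and ins-26 higher and ins-29, daf-28, ins-17 and ins-31 lower. That is 23.1% of the members tested, beside 20.5% of the 15235 genes tested (9.18% higher and 11.4% lower). Early, 5 were called, all lower: daf-28, ins-5, ins-29, ins-33 and ins-1. That is 19.2%, beside 16% of all genes tested (7.38% higher and 8.57% lower). The shares of members called were close to those of all genes in both windows. The median member difference was -0.08 late and -0.14 early, with -0.02 and -0.000416 over all genes. All comparisons with N2 share the same N2 libraries.

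**Figure D4:**
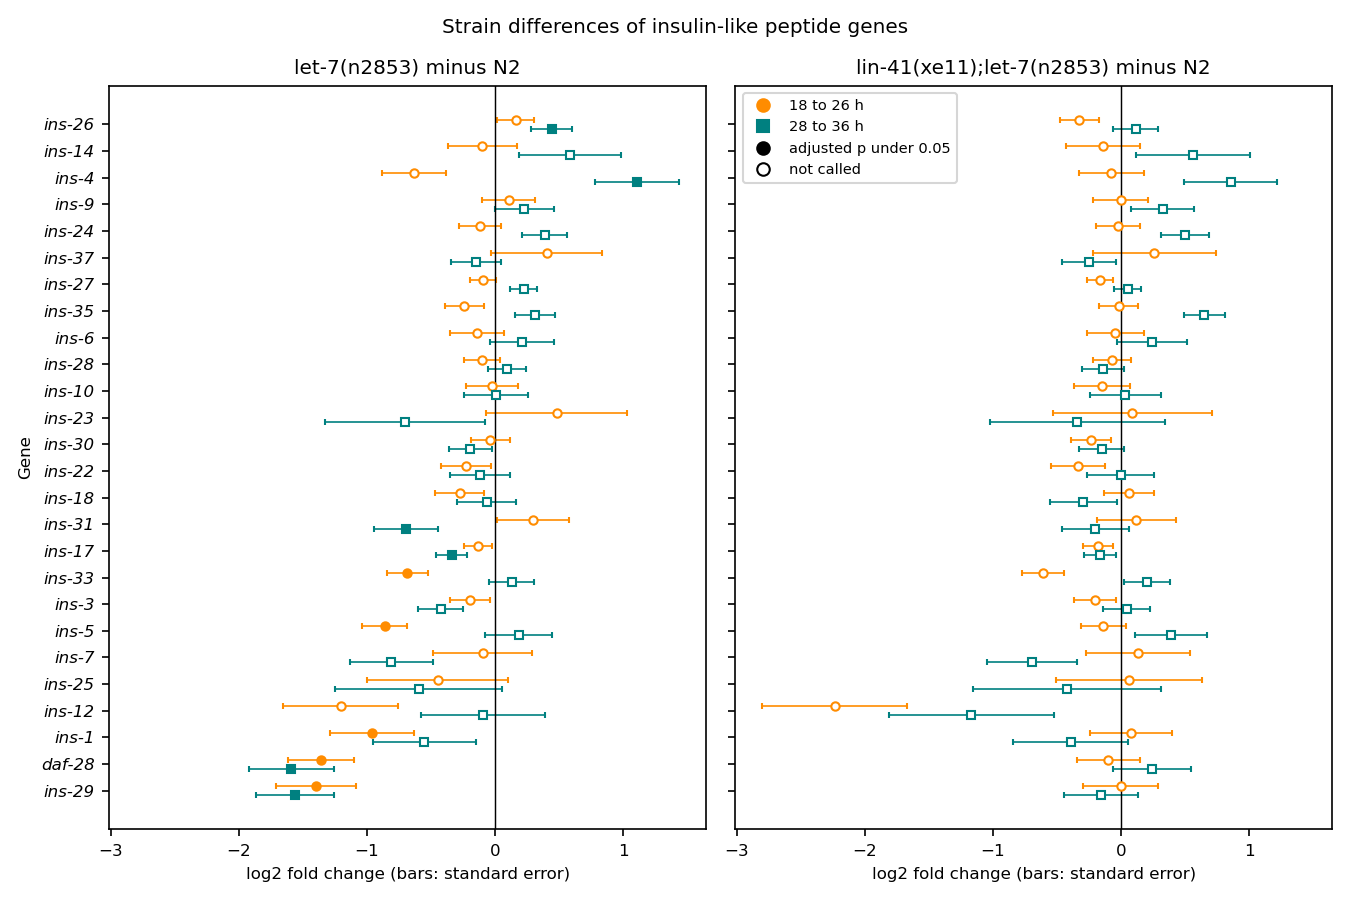
Log2 fold change of each tested member in let-7(n2853) (left) and in the double mutant (right) against N2, in the early and the late window, with the standard error as the bar. Filled symbols passed an adjusted p of 0.05. daf-28 and ins-29 lie near -1.5 in let-7(n2853) and near 0 in the double mutant.

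daf-28 had the largest fitted late fall. At 18, 20, 22, 24 and 26 h, let-7(n2853) had 1.23, 0.914, 1.57, 1.13 and 0.757 CPM, against 4.54, 2.94, 2.49, 2.76 and 1.93 CPM in N2. The early groups did not overlap, and the difference was -1.36 ± 0.26 (adjusted p = 0.000582), lower at 5 of 5 hours. At 28, 30, 32, 34 and 36 h it had 1.00, 0.213, 0.374, 0.419 and 0.286 CPM in let-7(n2853), against 1.22, 2.55, 1.12, 0.832 and 1.11 CPM in N2. The late groups touched only through the let-7(n2853) library of 28 h, which was above the lowest N2 value, and the difference was -1.59 ± 0.33 (adjusted p = 0.00108), again lower at 5 of 5 hours. These values rest on 6 to 43 counts in each let-7(n2853) library. Both calls held under each of the 19 alternatives run. The late value was -1.05 without the libraries of 30 h (adjusted p = 0.0221), and -0.81 by limma on the deposited log2 values, whose pseudocount of 8 shrinks differences of low genes.

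lin-41(xe11) had 3.65, 4.10, 2.86, 2.47, 1.998, 1.38, 1.12, 1.32, 1.09, 0.784 and 0.945 CPM of daf-28 from 18 to 38 h, and the double mutant 4.68, 3.78, 1.95, 2.10, 1.55, 2.18, 1.02, 2.73, 1.27, 1.07 and 0.847 CPM. Neither was called against N2. The double mutant differed from N2 by -0.10 ± 0.25 early (95% interval -0.61 to 0.41) and 0.24 ± 0.31 late (-0.39 to 0.87). lin-41(xe11) differed by 0.04 ± 0.25 early (-0.47 to 0.56) and -0.27 ± 0.33 late (-0.94 to 0.41).

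ins-29, in the chromosome I group, was lower in let-7(n2853) as well. Early it had 0.238, 0.295, 0.146, 0.248 and 0.473 CPM in let-7(n2853), against 0.685, 0.736, 1.05, 0.551 and 0.747 CPM in N2. Late it had 0.268, 0.284, 0.374, 0.457 and 0.286 CPM in let-7(n2853), against 0.448, 0.525, 1.28, 1.25 and 1.59 CPM in N2. Early groups did not overlap, and late the highest let-7(n2853) library, at 34 h, was just above the lowest N2 library, at 28 h. The differences were -1.40 ± 0.31 early (adjusted p = 0.00266) and -1.56 ± 0.30 late (adjusted p = 0.000491), lower at 5 of 5 hours in each window. Each let-7(n2853) library held 4 to 15 counts. Both calls held under each of the 18 alternatives in which the gene was tested. lin-41(xe11) had 1.45, 1.24, 0.643, 1.197, 0.896, 0.612, 0.395, 0.377, 1.34, 0.627 and 0.118 CPM and the double mutant 0.985, 0.847, 0.568, 0.841, 0.562, 0.725, 0.580, 1.49, 0.917, 0.783 and 0.456 CPM, and neither was called against N2. ins-25, the next gene along, was not called in let-7(n2853), with -0.45 ± 0.55 early and -0.60 ± 0.65 late.

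The early window held 3 further falls, in ins-5, ins-33 and ins-1. ins-5 had 2.66, 1.77, 1.60, 1.74 and 1.48 CPM in let-7(n2853), against 3.74, 4.15, 2.82, 2.96 and 2.93 CPM in N2. The groups did not overlap early, and the difference was -0.86 ± 0.18 (adjusted p = 0.00108). Among the alternatives the call was lost only with no replicate block, meaning no term for the hour (adjusted p = 0.434). Late, ins-5 had 0.904, 0.284, 1.38, 0.837 and 0.464 CPM in let-7(n2853), against 0.767, 0.300, 1.04, 0.832 and 0.398 CPM in N2, with a difference of 0.18 ± 0.26 (95% interval -0.35 to 0.72). In lin-41(xe11) it had 4.09, 3.48, 1.81, 2.84, 1.998, 0.612, 0.593, 1.70, 0.918, 0.0784 and 0.531 CPM, and in the double mutant 6.06, 3.19, 2.19, 2.80, 1.62, 0.989, 0.653, 1.41, 0.987, 0.356 and 0.456 CPM, with no call.

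ins-33, which with ins-3 is reported to promote proliferation of the larval germline, had 20.0, 10.7, 5.25, 6.73 and 6.56 CPM early in let-7(n2853), against 25.5, 17.7, 14.7, 9.64 and 8.22 CPM in N2. It was lower at 5 of 5 hours, although the ranges overlapped, by 0.68 (adjusted p = 0.00371). The call was lost without the libraries of 22 h (-0.46, adjusted p = 0.0517). So it was with the age in place of the hour (-0.57, adjusted p = 0.1002) and with no replicate block (adjusted p = 0.712). Late it had 3.92, 6.33, 10.9, 7.04 and 4.25 CPM in let-7(n2853), against 4.35, 7.65, 11.3, 3.95 and 3.105 CPM in N2, a difference of 0.13 ± 0.18. lin-41(xe11) had 17.6, 15.01, 7.72, 9.42, 6.06, 6.12, 9.16, 9.24, 6.68, 3.37 and 3.48 CPM and the double mutant 24.6, 10.4, 5.55, 6.37, 6.89, 5.01, 8.78, 11.2, 5.57, 3.77 and 4.82 CPM. Early, both were lower than N2 at 5 of 5 hours without being called, by 0.45 in lin-41(xe11) (adjusted p = 0.693) and 0.61 in the double mutant (adjusted p = 0.195). ins-3 was not called, with -0.20 ± 0.15 early and -0.43 ± 0.17 late in let-7(n2853).

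ins-1 had 0.436, 0.206, 0.401, 0.283 and 0.158 CPM early in let-7(n2853), against 0.623, 0.335, 0.459, 0.758 and 0.685 CPM in N2, an overlapping pair of groups that differed by -0.96 ± 0.33 (adjusted p = 0.0464). Late it had 0.301, 0.213, 0.299, 0.0761 and 0.250 CPM in let-7(n2853), against 0.320, 0.450, 0.321, 0.416 and 0.159 CPM in N2, and was not called. In lin-41(xe11) it had 0.315, 0.232, 0.468, 0.449, 0.482, 0.612, 0.0659, 0.0943, 0.250, 0.313 and 0.295 CPM and in the double mutant 0.640, 0.717, 0.568, 0.700, 0.422, 0.462, 0.145, 0.0827, 0.282, 0.285 and 0.130 CPM. The early call was lost under 11 of 18 alternatives.

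Late in let-7(n2853), ins-4 went the other way from daf-28 and ins-29. It had 1.21, 0.640, 2.21, 1.60 and 1.07 CPM, against 0.831, 0.375, 0.723, 0.763 and 0.318 CPM in N2, and was higher at 5 of 5 hours by 1.11 ± 0.33 (adjusted p = 0.0167). The ranges overlapped at their edges. Early it had 3.21, 1.36, 0.437, 1.66 and 1.61 CPM in let-7(n2853), against 2.99, 2.01, 2.36, 2.07 and 2.24 CPM in N2, which was not called (-0.63 ± 0.25, adjusted p = 0.0859). lin-41(xe11) had 4.54, 2.24, 0.935, 2.92, 2.14, 0.535, 0.659, 1.04, 0.250, 0.235 and 0.413 CPM and the double mutant 4.48, 1.96, 0.932, 2.52, 2.25, 0.791, 0.653, 2.48, 1.69, 0.285 and 0.391 CPM. The double mutant was also high at 32 and 34 h, but its late difference from N2, 0.86 ± 0.36, was not called (adjusted p = 0.349). With the age in place of the hour the late value in let-7(n2853) was 0.37 (adjusted p = 0.601). Leaving out the libraries of 32 h or of 36 h, or the replicate block, also ended the call.

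The remaining 3 late calls in let-7(n2853) were small and each was lost under at least 13 alternatives. ins-26 had 4.32, 3.42, 3.68, 3.58 and 3.56 CPM early and 2.78, 3.38, 3.48, 2.02 and 2.04 CPM late in let-7(n2853), against 3.61, 3.35, 3.28, 3.17 and 3.17 CPM and 2.05, 2.55, 2.09, 1.73 and 1.51 CPM in N2. It was higher at 5 of 5 late hours by 0.44 ± 0.16 (adjusted p = 0.0465), with overlapping ranges. lin-41(xe11) had 2.90, 3.79, 3.62, 3.89, 3.79, 3.29, 2.37, 1.70, 2.09, 2.74 and 2.18 CPM and the double mutant 2.76, 2.61, 2.51, 2.52, 2.88, 3.099, 1.67, 2.15, 1.69, 2.13 and 2.22 CPM of ins-26. ins-17, whose values are given above, was lower at 4 of 5 late hours by 0.34 (adjusted p = 0.0421). ins-31 had 0.555, 0.442, 0.838, 0.496 and 0.662 CPM early and 0.703, 0.604, 0.486, 0.685 and 0.679 CPM late in let-7(n2853), against 0.311, 0.669, 0.525, 0.620 and 0.311 CPM and 0.512, 0.9745, 0.963, 1.73 and 0.955 CPM in N2. It was lower at 4 of 5 late hours by 0.69 (adjusted p = 0.0476), with overlapping ranges. In lin-41(xe11) ins-31 had 0.378, 0.697, 0.409, 0.748, 0.758, 0.918, 0.923, 0.848, 0.668, 1.18 and 1.00 CPM, and in the double mutant 0.295, 0.391, 0.649, 0.841, 0.492, 0.791, 0.725, 0.744, 0.846, 1.35 and 0.717 CPM. ins-14 had 1.43, 1.15, 1.28, 0.885, 0.820, 0.703, 0.569, 0.486, 0.419 and 0.321 CPM in let-7(n2853), 1.45, 1.16, 1.64, 1.12, 1.17, 1.15, 0.593, 0.377, 0.668, 0.0784 and 0.177 CPM in lin-41(xe11) and 1.43, 1.24, 1.18, 1.26, 0.281, 0.659, 0.290, 0.496, 0.423, 0.569 and 0.0652 CPM in the double mutant, and was not called in any strain.

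Whether an effect of let-7(n2853) differed between the windows was tested as the late minus the early difference. By edgeR no member was called, beside 0.0788% of all genes, with 7 members at an unadjusted p under 0.05. limma called none and DESeq2 called 1, ins-4 (1.80, adjusted p = 0.0256). In edgeR ins-4 had 1.74 ± 0.41 (adjusted p = 0.110), ins-5 1.04 ± 0.31 (adjusted p = 0.315) and ins-33 0.81 ± 0.24 (adjusted p = 0.289). For daf-28 the late minus early difference was -0.23 ± 0.41 (95% interval -1.08 to 0.61) and for ins-29 -0.16 ± 0.45 (-1.09 to 0.76). The early-only and late-only calls are therefore not shown to differ between the windows.

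**Figure D5:**
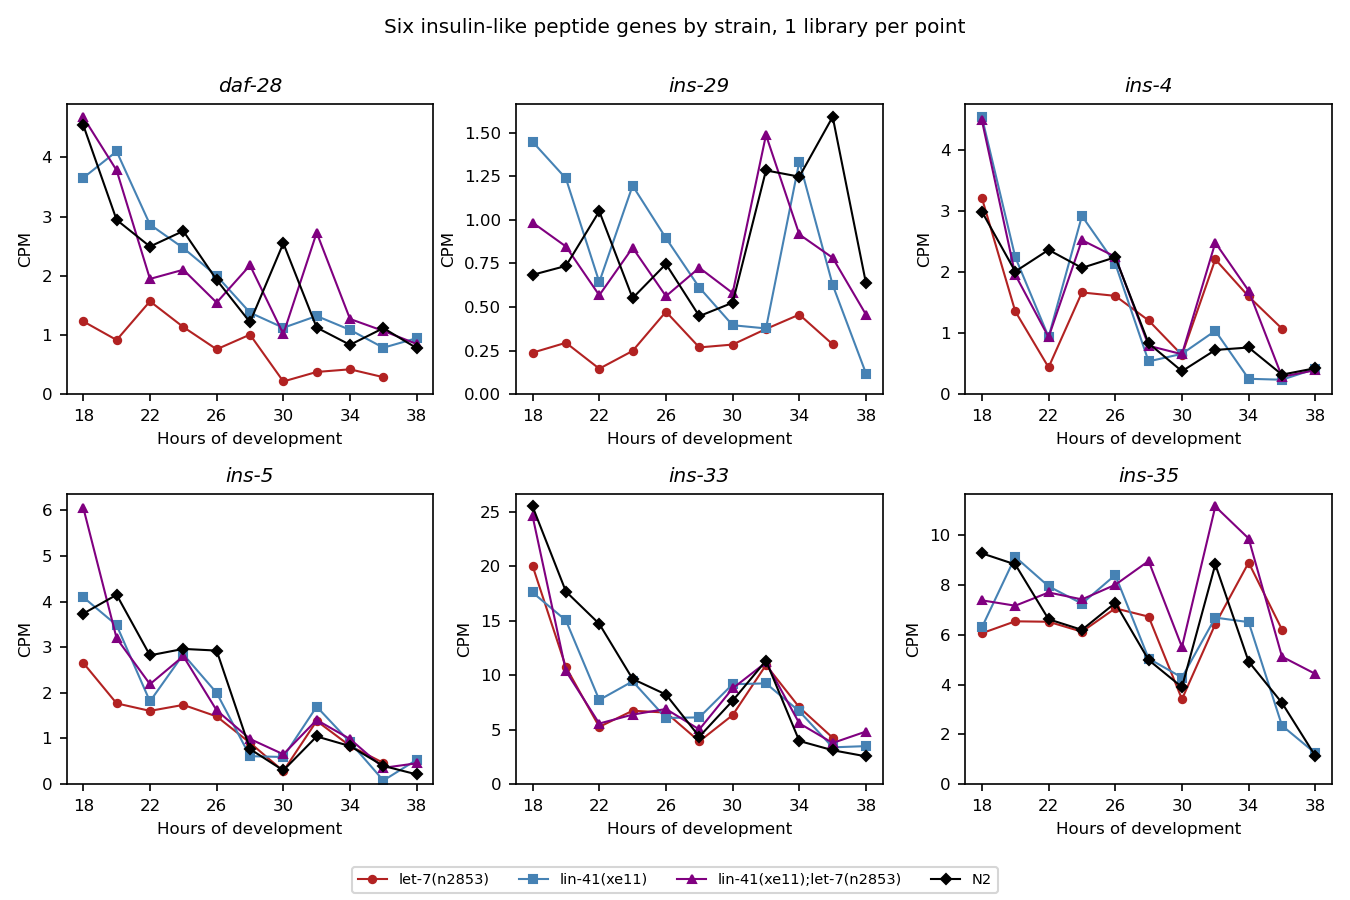
CPM of daf-28, ins-29, ins-4, ins-5, ins-33 and ins-35 by hour of development in the 4 strains, 1 library per point. The let-7(n2853) line is lowest for daf-28 at each hour to 36 h, and the double mutant is highest for ins-35 at 28, 30, 32 and 34 h.

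Set directly against the double mutant late, let-7(n2853) was lower for daf-28 and ins-29 and no other member was called. All genes tested gave 20.1% called, 9.89% higher and 10.2% lower, and the members 7.69%. daf-28 had 1.00, 0.213, 0.374, 0.419 and 0.286 CPM in let-7(n2853), against 2.18, 1.02, 2.73, 1.27 and 1.07 CPM in the double mutant. The groups did not overlap, and the difference was -1.83 ± 0.32 (adjusted p = 0.000176). ins-29 had 0.268, 0.284, 0.374, 0.457 and 0.286 CPM in let-7(n2853), against 0.725, 0.580, 1.49, 0.917 and 0.783 CPM in the double mutant, without overlap, and differed by -1.41 ± 0.31 (adjusted p = 0.00161). The next, ins-3, was at -0.47 ± 0.17 (adjusted p = 0.0553). ins-4 differed by 0.25 ± 0.29 (95% interval -0.35 to 0.85). Sequencing depth moved with this comparison too, at 22.9 to 32.9 M counts in let-7(n2853) against 12.7 to 25.0 M in the double mutant. With the let-7(n2853) counts thinned to the N2 depth, daf-28 and ins-29 were still called.

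For the lin-41(xe11) strain and for the double mutant no member was called against N2 by edgeR. The shares of all genes called were 0.328% late and 0.0722% early in lin-41(xe11), and 0.729% late and 0.112% early in the double mutant. Members at an unadjusted p under 0.05 numbered 0 late and 2 early in lin-41(xe11), and 3 late and 3 early in the double mutant. DESeq2 called 1 in these 4 contrasts, ins-35 late in the double mutant, and limma none. Late minus early gave no call in lin-41(xe11), with 2 unadjusted and 0.0197% of all genes called, or in the double mutant, with 4 unadjusted and 0.00656%, by edgeR, DESeq2 or limma. Between the double mutant and lin-41(xe11) late, edgeR called none (0.112% of all genes, 2 unadjusted), limma none and DESeq2 1, again ins-35.

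ins-35 was the member nearest to a call in the double mutant. Late it had 8.97, 5.51, 11.2, 9.87 and 5.12 CPM in the double mutant, against 4.99, 3.90, 8.83, 4.92 and 3.26 CPM in N2. It was higher at 5 of 5 hours by 0.65 ± 0.16 (adjusted p = 0.0525), and the ranges overlapped. lin-41(xe11) had 6.30, 9.13, 7.95, 7.26, 8.41, 5.05, 4.28, 6.69, 6.51, 2.35 and 1.24 CPM over the whole course and let-7(n2853) 6.06, 6.54, 6.53, 6.13, 7.06, 6.73, 3.41, 6.43, 8.90 and 6.21 CPM. Early it had 7.39, 7.17, 7.70, 7.42 and 8.01 CPM in the double mutant, against 9.28, 8.83, 6.63, 6.200 and 7.28 CPM in N2 (-0.02 ± 0.15). In the 38 h libraries ins-35 stood at 1.24 CPM in lin-41(xe11), 4.43 CPM in the double mutant and 1.13 CPM in N2. By DESeq2 the late difference was 0.65 (adjusted p = 0.0178), and edgeR called it without the libraries of 32 h or of 36 h.

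ins-12, chosen here after its values were seen, was lower than in N2 early in all 3 mutant strains by the fitted values, without a call. The difference was -1.20 ± 0.45 in let-7(n2853) (adjusted p = 0.0670), -2.23 ± 0.56 in the double mutant (adjusted p = 0.160) and -2.22 ± 0.60 in lin-41(xe11) (adjusted p = 0.265), each set against the same N2 libraries. The let-7(n2853) value was called without the libraries of 36 h (-1.18, adjusted p = 0.0373). Early it had 0.0396, 0.147, 0.474, 0.177 and 0.126 CPM in let-7(n2853), 0, 0.130, 0.243, 0.0700 and 0 CPM in the double mutant and 0, 0.0774, 0.234, 0.0748 and 0.0689 CPM in lin-41(xe11), against 0.125, 0.335, 0.853, 0.827 and 0.124 CPM in N2. The gene rests on 169 counts over all 43 libraries.

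The receptor and its cascade gave small changes. Of 18 genes on a list of the receptor and its cascade, 5 rose and 2 fell late in let-7(n2853), and 1 rose and 2 fell early. Over all genes tested, 9.18% rose and 11.4% fell late, and 7.38% rose and 8.57% fell early. The median over the list was 0.04 late and 0.02 early, beside -0.02 and -0.000416 over all genes. daf-2, the receptor, was not called, with 0.10 ± 0.06 late and -0.05 ± 0.06 early. daf-16, the FOXO factor, was not called either, with 0.03 ± 0.07 and -0.08 ± 0.06. The smallest p-values late were those of pptr-1, a phosphatase subunit that acts on AKT-1 (-0.37 ± 0.05, adjusted p = 3.84e-06), eak-7, which acts in parallel to AKT-1 (-0.23 ± 0.06, adjusted p = 0.00794), and akt-2, a kinase of the cascade (0.25 ± 0.07, adjusted p = 0.0103). Early they were pptr-1 (-0.30 ± 0.05), the kinase gene sgk-1 (0.34 ± 0.06) and eak-7 (-0.21 ± 0.06). Set against the double mutant late, 6 of the 18 were higher in let-7(n2853) and 3 lower, beside 9.89% and 10.2% of all genes. The list median there was 0.09, beside 0.01 over all genes. None of the 18 was called against N2 in lin-41(xe11) or the double mutant, where 0.0722% to 0.729% of all genes were called. Along N2, 3 rose and 8 fell, among them daf-2 (-0.07 ± 0.01 per 2 h) and daf-16 (-0.04 ± 0.01 per 2 h). Of all genes tested in N2, 33.4% rose and 25.5% fell.

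Genes that process peptides and release them from dense-core vesicles changed in both directions in let-7(n2853). Of 17 listed genes, 2 rose and 3 fell in each window, where 20.5% of all genes were called late and 16% early. The list's median was 0.08 late and 0.00404 early. egl-3, the prohormone convertase that cleaves many neuropeptide precursors, had 161, 134, 129, 112 and 104.03 CPM late in let-7(n2853), against 205, 197, 175, 156 and 132 CPM in N2, and fell by 0.45 ± 0.06 (adjusted p = 4.67e-06). sbt-1, whose product is a chaperone of that convertase, had 41.4, 28.7, 30.0, 30.7 and 23.8 CPM late in let-7(n2853), against 51.0, 47.0, 44.2, 36.97 and 36.1 CPM in N2, and fell by 0.50 ± 0.06 (adjusted p = 3.28e-06). Both were lower at each of the 5 late hours, and the ranges overlapped. Early they fell by 0.44 ± 0.06 and 0.47 ± 0.06, and ida-1, a dense-core vesicle protein gene, by 0.22 ± 0.05. snb-1, the synaptobrevin of synaptic vesicles, rose late (0.28 ± 0.07). Against the double mutant late, sbt-1 was lower by 0.52 ± 0.06 and egl-3 by 0.39 ± 0.06, with 5 of the 17 higher and 4 lower, beside 9.89% and 10.2% of all genes. In N2, 13 of the 17 fell along the course and none rose, beside 25.5% of all genes falling and 33.4% rising.

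Marker genes of neurons did not fall as a group in let-7(n2853). Summed over 10 neuron genes, late levels were 429 to 640 CPM in let-7(n2853), against 395 to 663 CPM in N2. Early they were 663 to 974 CPM in let-7(n2853), against 730 to 1051 CPM in N2. For 8 chemosensory genes, which mark cells of the kind that make DAF-28, late sums were 103 to 130 CPM in let-7(n2853), against 103.8 to 126 CPM in N2, and early sums 130 to 167 CPM, against 130 to 168 CPM. No gene of either list was at 0 in all libraries of a group. By the test, 1 neuron gene rose and 1, egl-3, fell late, and 2 rose and 1 fell early. Of the chemosensory genes, 1 rose and 1 fell late, and none rose and 1 fell early. Over all genes tested, 9.18% rose and 11.4% fell late, and 7.38% rose and 8.57% fell early. The chemosensory gene that fell in both windows was odr-4, by 0.14 ± 0.05 late (adjusted p = 0.0412) and by 0.24 ± 0.05 early (adjusted p = 0.00127). The list medians were 0.13 late and 0.13 early for neurons and 0.01 and 0.15 for chemosensory genes. Late in let-7(n2853), 5 of 7 germline genes and 2 of 7 intestinal genes fell, beside 11.4% of all genes. None of either list was called in lin-41(xe11) or the double mutant, where at most 0.729% of all genes were called. The late germline sums were 595 to 1107 CPM in let-7(n2853), against 646 to 1369 CPM in N2. Their part in the results was not tested.

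More of the genes that DAF-16 is reported to raise fell than rose in let-7(n2853). Of 12 tested genes that DAF-16 is reported to raise, 1 rose and 5 fell late in let-7(n2853), and 3 fell early, where 11.4% of all genes fell late and 8.57% early. The list's median was -0.39 late and -0.30 early, beside -0.02 and -0.000416 over all genes. lys-8, a lysozyme gene, fell late by 0.39 ± 0.06 (adjusted p = 4.15e-05), dod-6 by 0.87 ± 0.14 (adjusted p = 5.47e-05) and lea-1, a gene of desiccation tolerance, by 0.46 ± 0.11 (adjusted p = 0.00431). Early, dod-6 fell by 0.99 ± 0.13, lys-8 by 0.31 ± 0.06 and sip-1, a small heat-shock gene, by 0.62 ± 0.19. Set against the double mutant late, none of the 12 was higher in let-7(n2853) and 3 were lower. All genes tested gave 9.89% higher and 10.2% lower. The median of the 12 in that contrast was -0.03, beside 0.01 over all genes. Their late median against N2 was also under 0 in the double mutant (-0.20) and in lin-41(xe11) (-0.11). Of 10 tested genes that DAF-16 is reported to lower, which include ins-7, 3 fell late in let-7(n2853) and 1, dod-17, rose early (0.46 ± 0.10), with a list median of -0.22 late and 0.00832 early. The late falls were vit-2, vit-5 and dod-19. vit-2, a yolk protein gene, had 0.0335, 0.107, 0.710, 1.79 and 2.25 CPM late in let-7(n2853), against 0.576, 4.05, 17.5, 107 and 545 CPM in N2. vit-5, another, had no count in any let-7(n2853) library and 0.347 and 19.5 CPM at 34 and 36 h in N2. dod-19 fell by 0.28 ± 0.07. Set against the double mutant late, 4 of the 10 were lower in let-7(n2853) and none higher, with a list median of -0.24. Late in the double mutant, vit-2 and vit-5 were the 2 called, both lower, and in lin-41(xe11) only lys-7 was called among both lists (-0.74 ± 0.16). Over all genes, 0.729% were called late in the double mutant and 0.328% in lin-41(xe11). Along N2, 4 rose and 4 fell of the 13 tested genes reported as raised, and 4 rose and 2 fell of the 10 reported as lowered. Of all genes tested in N2, 33.4% rose and 25.5% fell.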

How the data were processed

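Per the labels' protocols, ribosomal RNA was removed from whole-worm total RNA (Ribo-Zero kit) and libraries were prepared with the ScriptSeq v2 kit. The authors deposited a table of 1 count per gene and library for 20182 genes, and a second table of log2 values. Checked against the counts, each deposited log2 value was that of the count scaled to a common total, plus a pseudocount of 8, with the total at 26.10 M in let-7(n2853) and 12.02 M elsewhere. Mapping, counting and strand are not given in the sources used here. Symbols were matched for 18778 IDs. All 903 pairs of libraries differed by more than sampling noise (smallest chi-square per degree of freedom 4.25).

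edgeR 4.0.16 in R 4.3.3 was used on the counts with TMM scaling and its quasi-likelihood test. The strain fit used the 40 libraries of 18 to 36 h, with the hour as a factor of 10 levels and 1 term for each mutant strain in each window (16 columns, 24 residual degrees of freedom). The hour in the labels pairs libraries across strains and is the replicate block. The N2 fit held a linear trend with a cosine and sine of period 8 h (11 libraries, 7 residual degrees of freedom). Testing required a mean of 0.2 CPM over the fitted libraries, which 15235 and 15358 genes reached. Intervals are 95%, use the standard errors worked out from the F statistic with the residual degrees of freedom, and are approximate. Alternatives included DESeq2 1.42.0 and limma 3.58.1. Strain and hour came from the labels, and the windows were set here. Both fits were run on simulated counts with the same dispersion for all genes and no hour effects beyond the added changes. That setting is simpler than these data, so it does not show how the fits perform on them.

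Values in every library are given for the 5 detected members of highest mean CPM, members called in any strain contrast, and the 4 largest called rises (only 3 were called) and falls along N2. From each list up to 3 genes of smallest p per window are named, with daf-2 and daf-16 always. Members, lists, windows and rules were chosen with earlier results of these data known. No sequences were printed.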

Additional observations from a re-analysis of the deposited data

Results flagged for a closer look

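In 24 groups of CPM values from 5 libraries (1 strain and window), a sample far from the others was looked for. The rule was a gap over range above 0.71. For 5 values alike in distribution, chance passes it in about 1 group in 20. Each group here holds 5 different hours, so that rate does not apply to genes that change with the hour. Such a sample was found in 3 groups. daf-28 late in let-7(n2853) had 1.00 CPM at 28 h, above the other 4 libraries. daf-28 late in N2 had 2.55 CPM at 30 h, above the other 4. ins-5 early in let-7(n2853) had 2.66 CPM at 18 h, again the highest. The late daf-28 call of let-7(n2853) against N2 held without the libraries of 28 h, at -2.11, and without those of 30 h, at -1.05.

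Direct tests between let-7(n2853) and the double mutant in the late window found daf-28 at -1.83 and ins-29 at -1.41 on the log2 scale. Both were lower in let-7(n2853) at 5 of 5 hours. Depth moves with this comparison, and with the let-7(n2853) counts thinned to the N2 depth the values were -2.16 and -1.51, both called.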

How the results depend on the processing

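The calls of daf-28 and ins-29 in let-7(n2853), early, late and against the double mutant, held under every alternative in which the genes were tested. Late in let-7(n2853) against N2, the count of members called was 6, and 3 with DESeq2, 3 with the age in place of the hour, 2 with no replicate block and 2 to 6 when the libraries of 1 hour were left out in turn. It was 2 without 36 h, and 3 without 26 h or without 34 h. Early the count was 5, and 3 with a mean CPM of at least 1 (which leaves ins-29 and ins-1 untested), 2 with no replicate block and 4 to 5 with 1 hour left out. Both members called with no replicate block were daf-28 and ins-29. In the double mutant against N2 late the count was 0, and 1 with DESeq2, 1 with a total of at least 10 counts and 0 to 1 with 1 hour left out, in each case ins-35. DESeq2 also gave 1 in place of 0 for late minus early in let-7(n2853), and 1 in place of 0 for the double mutant against lin-41(xe11). With the let-7(n2853) counts thinned to the N2 depth, an alternative chosen after seeing the data, let-7(n2853) against the double mutant gave 4 in place of 2, adding ins-26 and ins-3. A further one added then, without the double mutant library of 22 h, called ins-3 as well in that contrast. The detected members numbered 38 with 1 count, 23 with 10 counts, 32 with 1 library and 26 with 20 libraries in place of 3 counts in 5 libraries. Of the values of single members, 91 lost their call under an alternative, 471 kept it and none changed sign. Where no cause is given, it was not tested. Genes with a few counts per library, such as ins-12, ins-23 and ins-25, have wide intervals at this depth.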
